A study of Homo sapiens with 6 samples.

Results

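Smooth muscle contractile genes encode the actin filaments of smooth muscle, the proteins that coat them, and the myosin light chain and its kinase that set them in motion. The set held 10 genes, ACTA2, ACTG2, TAGLN, CNN1, MYL9, TPM1, TPM2, CALD1, MYLK and LMOD1, listed by name. All 10 were measured, by 23 of the 22215 probe sets tested, and the probe sets with a single symbol represented 11963 genes in all. The samples were 3 arrays of growing WI-38 control cells, labelled wild type, and 3 arrays of WI-38 cells that overexpressed RASv12, labelled senescent fibroblasts. WI-38 is a diploid fibroblast strain from fetal lung, and RASv12 is a RAS GTPase locked in its active state. All cells were kept at 3% oxygen and infection was retroviral, and the titles do not say whether control cells carried an empty vector, so effects of infection and of RASv12 cannot be told apart. The labels give Cy5 for control and Cy3 for RASv12 samples, so a dye effect, if there was one, cannot be told apart from the group. Whether arrays of 1 group are separate cultures is not stated in the labels. The p-values reflect array-to-array spread alone, which may be technical.

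Contraction of smooth muscle is switched on when calcium-bound calmodulin activates the kinase encoded by MYLK, which phosphorylates the regulatory light chain encoded by MYL9 and lets myosin pull on actin. Tropomyosin, caldesmon, calponin and transgelin bind along the actin filament and tune or stabilise it. Fibroblasts express many of the same genes, most strongly as myofibroblasts, and in both cell types the serum response factor SRF drives them with the cofactors myocardin or MRTF through a DNA element named the CArG box. Because the cells were measured in bulk, fewer cells that express a gene and less RNA per cell cannot be told apart.

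The CArG box was looked up in the RefSeq promoter windows of GRCh38.p14, each from 250 bases before to 50 bases after a start site, as a description of the letters there. The window table held 13 windows for 8 of the 10 genes, and TAGLN and MYL9 had no entry. A full CArG box (CC, a run of A or T letters, then GG, which reads alike on both strands) stood in 2 of the 13 windows, against 1.29% of all 35116 windows. These were the windows of ACTG2, with 2 boxes, and of a start site inside MYLK, with 1. ACTA2 had no full match in its 2 windows, but 1 of them held 2 stretches with 1 letter off. A stretch with at most 1 letter off was found for 5 of the 8 genes, against 22.3% of all genes with a window. The MCAT element, a TEAD factor element spelled CATTCC and searched on both strands, was found in windows of 4 of the 8 genes, ACTA2, CALD1, LMOD1 and MYLK, against 16.7% of all genes with a window. None of these overlapped a full CArG box. The 250 bases before the start site are shown for ACTG2, MYLK and ACTA2 as examples of windows that hold these letters. Windows of LMOD1 and CALD1, not shown, also held stretches with 1 letter off, and both genes were called down in RASv12 cells. CNN1 and TPM2 were called down too, and their windows held neither element, nor a CArG stretch with 1 letter off. A link between these letters and the falls was not tested. Capitals mark the full CArG boxes in ACTG2 and MYLK and the stretches with 1 letter off in ACTA2.
ACTG2, chr2:73892758-73893007, plus strand: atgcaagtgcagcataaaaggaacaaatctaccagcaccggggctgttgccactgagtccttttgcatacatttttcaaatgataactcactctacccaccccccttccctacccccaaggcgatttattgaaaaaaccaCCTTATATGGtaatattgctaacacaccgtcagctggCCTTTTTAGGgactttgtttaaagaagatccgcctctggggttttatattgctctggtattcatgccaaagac
MYLK, chr3:123620549-123620798, minus strand: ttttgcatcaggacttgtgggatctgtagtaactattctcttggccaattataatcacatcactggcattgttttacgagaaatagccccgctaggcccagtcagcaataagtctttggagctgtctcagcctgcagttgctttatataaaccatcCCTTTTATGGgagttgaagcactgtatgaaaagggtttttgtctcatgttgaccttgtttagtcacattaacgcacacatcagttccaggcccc
ACTA2, chr10:88952774-88953023, minus strand: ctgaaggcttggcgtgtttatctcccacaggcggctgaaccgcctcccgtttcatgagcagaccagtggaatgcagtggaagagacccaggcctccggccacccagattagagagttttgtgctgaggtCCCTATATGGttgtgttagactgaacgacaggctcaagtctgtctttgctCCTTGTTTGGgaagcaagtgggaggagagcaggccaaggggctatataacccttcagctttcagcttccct
The boxes began 110 and 73 bases before the start site in ACTG2 and 94 bases before it in MYLK, and the stretches in ACTA2 began 121 and 71 bases before it. The MYLK window, the only one held for that gene, belongs to a start site inside the gene, which also encodes the short protein telokin. That start site lies 263784 bases from the upstream end of the gene, which is 274284 bases long. No window at the upstream end of MYLK was read, so its CArG box and MCAT element describe the internal site alone. The ACTA2 window shown also belongs to an internal start site, 38564 bases from the upstream end of the gene. At that end the other ACTA2 window held neither element, nor a CArG stretch with 1 letter off. The MCAT elements of CALD1 lie in windows of start sites 33968 and 68135 bases from its upstream end.

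In RASv12 cells the transcripts of 9 of the 10 genes fell and none rose, read on the brightest probe set of each gene and tested with limma. By the same rule 14.8% of all genes were called down and 13.0% up. Among the 9 genes above background in both groups TAGLN fell most, to 5.41% of its control intensity, and TPM1, which did not pass, stood at 82.3%. Across the 10 genes the median log2 change was -1.52, against 0.02 over all genes. At least a 2-fold fall was fitted for 8 called genes, against 5.07% of all genes, and at least a 4-fold fall for TAGLN, MYLK and CNN1, against 1.13%. LMOD1 lay within background in RASv12 cells, and with LMOD1 at its bound the median was -1.24 and 7 genes fell at least 2-fold. In all 10 genes the highest RASv12 array lay under the lowest control array, as in 22.0% of all genes. Over probe sets, 12 of 23 were called down and none up, against 13.0% of all probe sets called down and 11.3% up. Of the 23, 18 were lower with no overlap, against 20.1% of all probe sets.

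**Figure D1:**
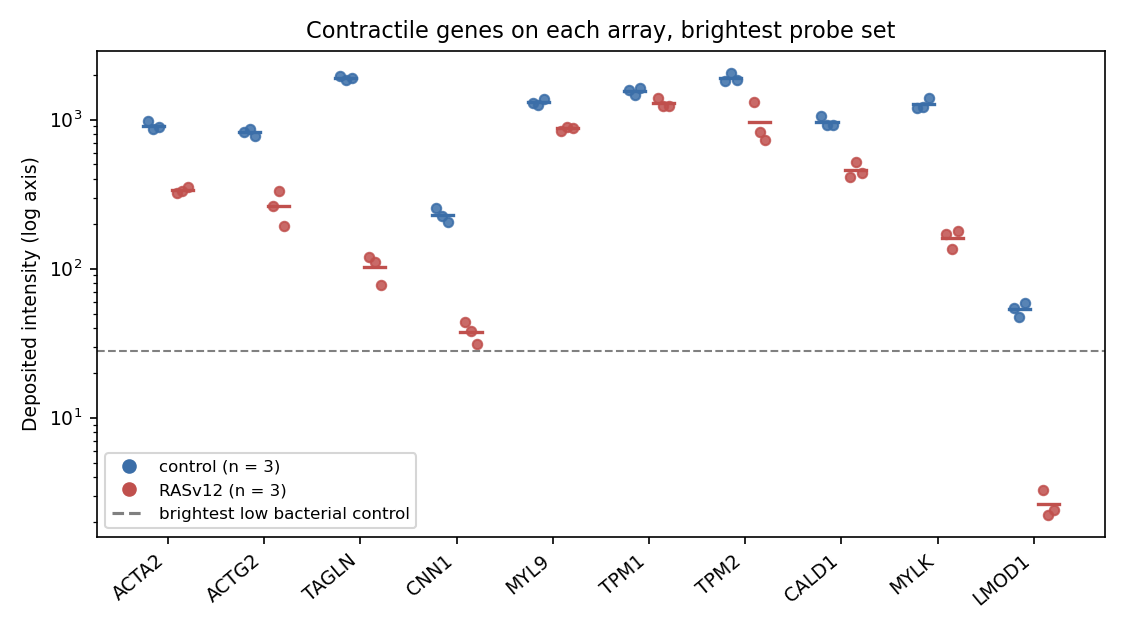
Deposited intensity on a log axis for the brightest probe set of each contractile gene, with a point for each array, a bar for the group mean, and a dashed line at 27.98, the highest intensity of any low bacterial control. The RASv12 points lie under all control points in each of the 10 genes, by most in TAGLN and LMOD1 and by least in TPM1, and the LMOD1 points of RASv12 cells lie under the dashed line.

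The labels were first checked on HRAS, whose intensity was 222, 189 and 234 on the control arrays and 816, 753 and 990 on the RASv12 arrays (adjusted p = 2.4e-04). Which RAS gene was introduced is not given in the sources used here. Hybridization control probe sets, which read control transcripts added to each sample before hybridization, were lower on the RASv12 arrays in 18 of 18 cases, by a mean of 0.34 on the log2 scale. Scaling the arrays to these controls in place of quantile normalization raised the median over all genes, 0.02, to 0.20 and turned the split of called probe sets from 2506 up and 2893 down to 4375 up and 1675 down. Each contractile gene is therefore given under that scaling too where its call or direction depends on it. Under it 8 of the 10 genes were called down and none up, with a median of -1.18.

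The smooth muscle actins form the thin filament itself. ACTA2, the alpha actin that marks myofibroblasts, had deposited intensities of 979, 862 and 890 in control cells and of 322, 333 and 355 in RASv12 cells. The spread within each group was small beside the gap between them. Its mean went from 910 ± 60.8 to 337 ± 16.9 (SD, n = 3), a log2 change of -1.40 ± 0.10 (SE; adjusted p = 1.9e-04). A second ACTA2 probe set lay between 5.6 and 21.3 on every array, within the low bacterial controls, and so bears no measurable level. Averaging both probe sets gave a log2 change of -0.62 for the gene, with adjusted p = 0.0075.

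ACTG2, the gamma actin of visceral smooth muscle, was read by a single probe set, at 827, 863 and 780 in control cells. It stood at 264, 331 and 193 in RASv12 cells, where the third array was lowest and the SD was 69.1, against 41.8 in controls. The groups did not overlap. ACTG2 fell by 1.63 ± 0.18 (SE) on the log2 scale, with adjusted p = 0.001.

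Among the proteins that bind along the filament, transgelin stood apart in size. TAGLN intensity was 1956, 1853 and 1893 on the control arrays and 120, 111 and 77.1 on the RASv12 arrays. It was thus uniform in growing cells and low on every RASv12 array, while still above the low bacterial controls. The log2 change was -4.03 ± 0.16 (SE, n = 3 per group) with adjusted p = 1.7e-05, the second largest fall among 11963 genes.

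CNN1 encodes calponin 1, an actin-binding inhibitor of the myosin ATPase that is abundant in differentiated smooth muscle. Its intensity was 255, 227 and 207 in control cells and 43.8, 38.4 and 31.3 in RASv12 cells, where it came close to the low bacterial controls. CNN1 fell by 2.19 ± 0.16 (SE) on the log2 scale, with adjusted p = 1.9e-04. With a pseudocount of 64 in place of 16 the size of its log2 change dropped to 1.52, since low intensities are then compressed more.

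CALD1 encodes caldesmon, which blocks the actin-activated ATPase of myosin and occurs in a long smooth muscle form and a short form found in most cells. Its brightest probe set, 212077_at, read 1066, 922 and 921 in control cells and 414, 517 and 437 in RASv12 cells. The groups were well apart, and the log2 change was -1.08 ± 0.13 (SE) with adjusted p = 0.0013. All 8 probe sets of CALD1 had a negative log2 change, from -1.08 to -0.44, and 3 of the 8 were called. The change of -0.44 was that of 215199_at, which lay within the low bacterial controls on every array and so bears no measurable level. The mean of all CALD1 probe sets had a log2 change of -0.67 (adjusted p = 0.018). The other called probe sets were 201617_x_at, at 159, 201 and 171 against 99.1, 127 and 99.6, and 205525_at, at 37, 43.7 and 43.2 against 21.8, 16.2 and 8.71. The call of 201617_x_at (adjusted p = 0.018) ended with scaling to the hybridization controls (adjusted p = 0.13). It also ended at a pseudocount of 1 and, with adjusted p from 0.051 to 0.059, without control replicate 2 or 3 or RASv12 replicate 1 or 3. That of 205525_at (adjusted p = 0.025) ended without any 1 of the 3 control replicates, without RASv12 replicate 2, at a pseudocount of 1 and with the replicate number as a block, with adjusted p from 0.052 to 0.086. In RASv12 cells 205525_at lay within the low bacterial controls, and its control level was at least 1.47-fold higher.

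The other CALD1 probe sets were noisier in control cells. Probe set 201615_x_at read 44.5 on the first control array against 137 and 173 on the others, and 80.4, 59.7 and 51 in RASv12 cells, so that its groups overlapped. Without control replicate 1 it was called down, at a log2 change of -1.09 with adjusted p = 0.023, against -0.58 with adjusted p = 0.40 on all arrays. Probe set 201616_s_at was also lowest on that array, at 270 against 503 and 394, with 251, 228 and 163 in RASv12 cells. Its log2 change of -0.81 missed the threshold (adjusted p = 0.051) and passed without control replicate 1 (adjusted p = 0.022) or without the dimmest 25% of probe sets (adjusted p = 0.027). Probe sets named _x_at hold probes that can bind related sequences, and the files do not say which caldesmon form each probe set reads.

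The 2 tropomyosin genes differed in whether they passed the test. Tropomyosin lies in the groove of the actin filament and governs which other proteins reach it. TPM2 read 1814, 2061 and 1846 in control cells and 1313, 832 and 735 in RASv12 cells, where the first array stood well above the others. It fell by 1.03 ± 0.20 (SE) on the log2 scale with adjusted p = 0.010. Its dimmer probe set, 212654_at, ran from 64.7 to 71.3 in control cells and from 26.9 to 44.9 in RASv12 cells, with no overlap, and missed the threshold (adjusted p = 0.052). It passed in 7 alternatives, with adjusted p from 0.017 to 0.046: both filters on dim probe sets, a pseudocount of 64, the values as deposited, median centring, and leaving out RASv12 replicate 1 or 3. Under hybridization control scaling the brighter TPM2 probe set changed by -0.69 (adjusted p = 0.039).

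TPM1 was read by 4 probe sets that did not move alike. The brightest, 210987_x_at, read 1588, 1462 and 1642 in control cells and 1393, 1241 and 1229 in RASv12 cells, a log2 change of -0.29 ± 0.09 (SE) with adjusted p = 0.061. It passed with a pseudocount of 64 (adjusted p = 0.013), without the dimmest 50% of probe sets (adjusted p = 0.049) or as the mean of all TPM1 probe sets (-0.49, adjusted p = 0.014). Under hybridization control scaling its log2 change was 0.06. Probe sets 210986_s_at and 206116_s_at overlapped between groups, at log2 changes of -0.15 and -0.41 with adjusted p = 0.58 and 0.17. Probe set 206117_at was different, at 105, 111 and 119 in control cells and 51.4, 42.2 and 33.3 in RASv12 cells. It fell by 1.11 ± 0.17 (SE) on the log2 scale with adjusted p = 0.0043.

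To ask whether probe sets of a gene moved by unequal amounts, the log2 difference between each probe set and the brightest one of its gene was tested between groups, over all 7102 such pairs on the array. Of the 13 pairs within the contractile genes 3 were called, against 10.7% of all pairs. For TPM1, 206117_at fell by 0.81 ± 0.20 (SE) more on the log2 scale than 210987_x_at (adjusted p = 0.033). The exact permutation p of that difference, two-sided, was 0.1, the lowest value open to 3 against 3 arrays. That call ended at a pseudocount of 1, with the replicate number as a block and on leaving out any array except RASv12 replicate 1, with adjusted p from 0.058 to 0.11. At a pseudocount of 64 it was called at -0.42. The remaining called pairs were those of ACTA2 and LMOD1, in which the dimmer probe set lay within the low bacterial controls on all 6 arrays. None of the 7 CALD1 pairs passed.

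**Figure D2:**
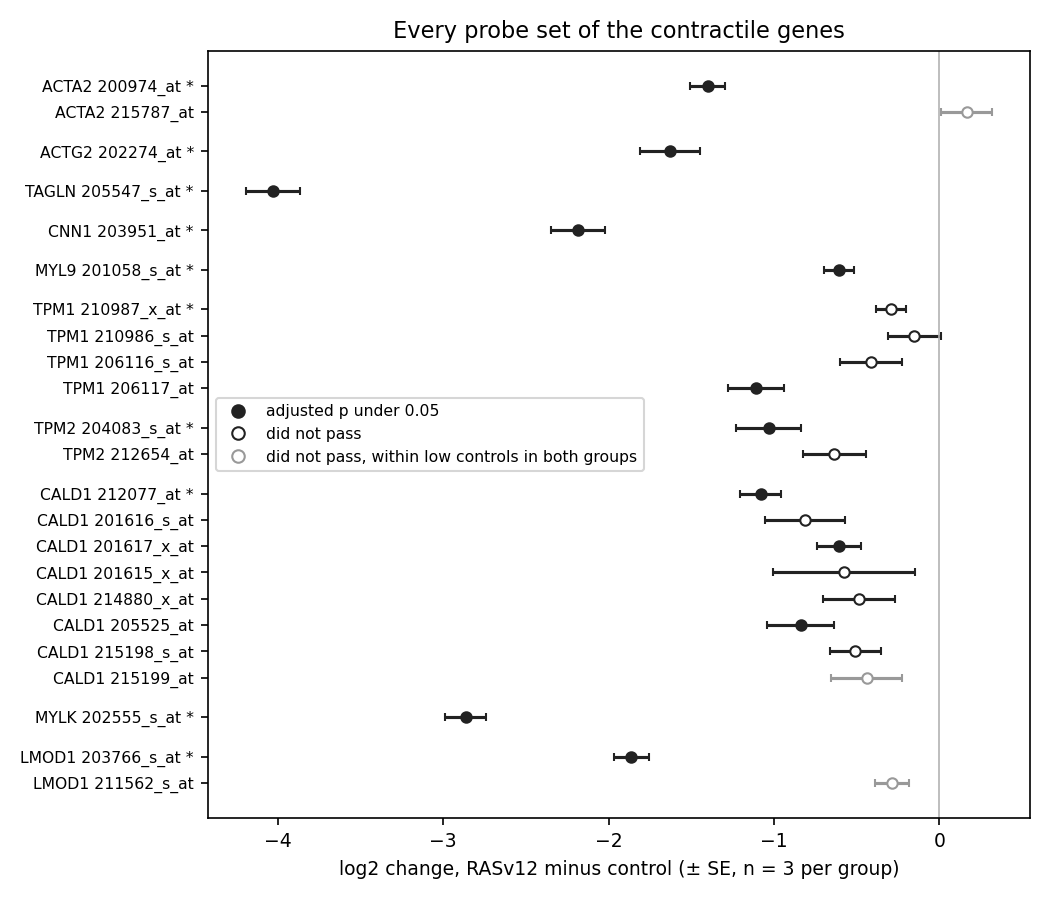
Log2 change from control to RASv12 cells, with its standard error (n = 3 per group), for the 23 probe sets of the 10 genes, where a star marks the brightest probe set of each gene. Filled points passed the test, and grey points mark probe sets no brighter than the low bacterial controls in either group. The TPM1 probe sets spread from -0.15 to -1.11, while all 8 CALD1 probe sets lie left of 0.

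MYL9 encodes the regulatory light chain that is phosphorylated to start contraction. Its intensity was 1294, 1257 and 1385 in control cells and 844, 890 and 883 in RASv12 cells, tight in both groups and without overlap. The log2 change was -0.60 ± 0.09 (SE) with adjusted p = 0.0038, which leaves 66.5% of the control intensity. Under scaling to the hybridization controls the change of MYL9 was -0.24 (adjusted p = 0.13), so its call rests on the scaling.

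The kinase that phosphorylates it changed far more. MYLK read 1198, 1214 and 1388 on the control arrays and 170, 135 and 180 on the RASv12 arrays. All 3 RASv12 arrays lay at a similar low level, and 12.7% of the control mean was left. MYLK fell by 2.86 ± 0.12 (SE) on the log2 scale (adjusted p = 2.1e-05). The files do not say whether its single probe set also reads telokin.

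LMOD1, leiomodin 1, nucleates actin filaments in smooth muscle. Its intensity was modest in control cells, at 54.7, 47.1 and 58.6, and 3.27, 2.24 and 2.39 in RASv12 cells, within the low bacterial controls. Control cells were therefore at least 1.90-fold higher (adjusted p = 5.6e-05). Its fitted log2 change ran from -3.90 with a pseudocount of 1 to -0.80 with a pseudocount of 64 and is no measure of its size. A second LMOD1 probe set lay between 1.72 and 7.05 on every array and did not pass.

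**Figure D3:**
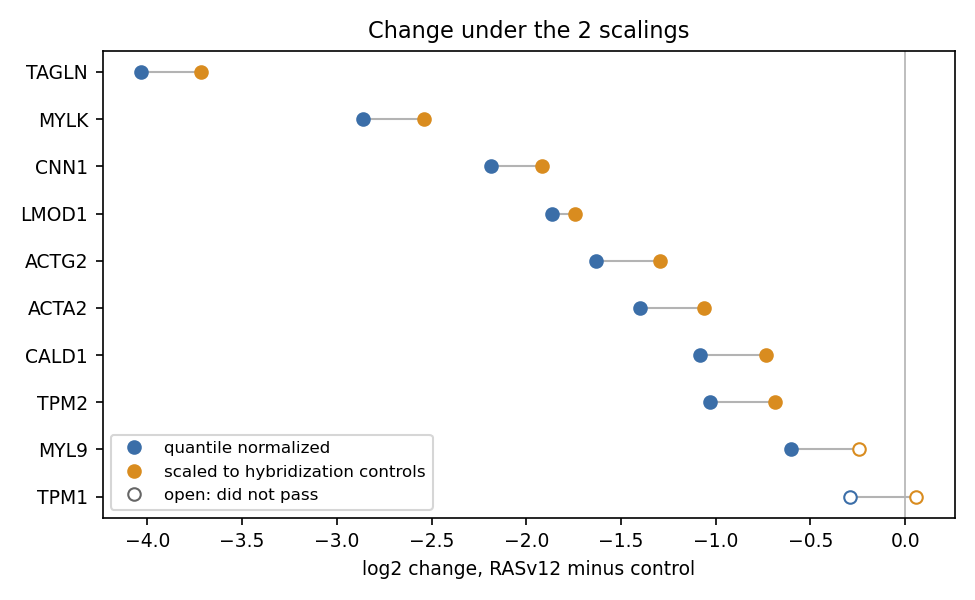
Log2 change of the brightest probe set of each gene under quantile normalization and under scaling to the hybridization control probe sets, with open points for genes that did not pass. The scaling moves every gene to the right, MYL9 loses its call at -0.24 and TPM1 crosses 0 to 0.06, while the other 8 genes remain called.

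The spread within groups depended on how it was measured. The SD of intensity was higher in control cells for 8 of the 10 genes. The coefficient of variation, which rises as the mean falls, was higher in RASv12 cells for 8 of the 10, with a median of 15.5% against 6.86%. RASv12 replicate 3 was the lowest of its group in 5 of the 10 genes and the highest in 2, and RASv12 replicate 1 was the highest in 5 and the lowest in 3. No single array was thus low in all genes of the set.

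Most members have relatives that nearly all cells express, and these were read beside them. ACTB, beta actin of the general cytoskeleton, changed by -0.003 on the log2 scale (adjusted p = 0.99, brightest probe set), which did not pass. TAGLN2 had -0.37 (adjusted p = 0.068) and its second probe set 0.42 (adjusted p = 0.24). TPM4, a short tropomyosin, had 0.23 on its brightest probe set and -0.31 on the other, and neither passed. The nonmuscle calponins CNN3 and CNN2 fell by 0.96 and 0.43, with adjusted p = 7.8e-04 and 0.042. The nonmuscle light chains gave a log2 change of 1.01 for MYL12A, which rose (adjusted p = 0.0044), of -0.07 for MYL12B and of -0.14 for MYL6, which did not pass. Of the heavy chains they serve, MYH10 fell by 2.26 (adjusted p = 1.2e-05) and MYH9 by 0.48 (adjusted p = 0.013). In all, of 13 relatives measured, 4 were called down, 2 up and 7 neither, at a median of -0.07. The shares over all genes were 14.8% down and 13.0% up. The second of the rises was TMOD2, a filament end cap, whose intensities of 0.91 to 18.3 lay within the low bacterial controls on every array. With scaling to the hybridization controls 2 fell and 4 rose, and CNN2 and MYH9 lost their calls.

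The change of a member was then set against that of a relative within the same arrays, a comparison that scaling of an array moves little. In 9 such pairs, written down after the values had been seen, the member had the lower log2 change each time on the brightest probe sets. TAGLN fell by 3.66 ± 0.21 (SE, n = 3) more than TAGLN2 on the log2 scale. MYL9 had a change lower than that of MYL12A by 1.61 ± 0.17, given as -1.61 for MYL9 minus MYL12A. The same difference was -1.40 ± 0.16 for ACTA2 against ACTB, -1.63 ± 0.23 for ACTG2 against ACTB and -1.23 ± 0.20 for CNN1 against CNN3. It was -1.75 ± 0.26 for CNN1 against CNN2, -1.26 ± 0.23 for TPM2 against TPM4 and -0.52 ± 0.17 for TPM1 against TPM4. The groups did not overlap in these 8 pairs, each with an exact permutation p (two-sided) of 0.1, again the lowest possible, and 0.1125 after Benjamini-Hochberg adjustment over the 9 pairs. A lower difference with no overlap was common for these 7 members, since it was found against 83.7% of all other genes, and is not particular to the relatives. With the mean of all probe sets the difference was -0.63 for ACTA2 against ACTB and -0.79 for TPM2 against TPM4, and at a pseudocount of 64 it was -0.71 for CNN1 against CNN3 and -1.15 for CNN1 against CNN2. MYL9 against MYL12B gave -0.53 ± 0.27 with overlapping groups and an exact permutation p of 0.2. The TPM1 difference depends on the TPM4 probe set, since the dimmer one changed by -0.31, against -0.29 for TPM1.

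Other genes of the smooth muscle cytoskeleton moved in both directions. Of 18 such genes, 8 were called down, 1 up and 9 neither, against 14.8% of all genes called down and 13.0% up. The list's median was -0.33. PALLD, an actin cross-linker of stress fibres, went from 1069, 1072 and 1092 to 219, 216 and 213 and fell by 2.25 ± 0.08 (SE) on the log2 scale. CAV1, the caveolin of membrane pits, fell by 1.92, the LIM protein CSRP2 by 1.55 and TGFB1I1, a focal adhesion adaptor, by 1.08, with adjusted p from 1.8e-04 to 3.6e-04. On the brightest probe sets the gene that rose was SMTN, smoothelin, an actin-binding protein used as a marker of contractile smooth muscle. It read 193, 177 and 154 in control cells and 375, 304 and 368 in RASv12 cells. SMTN thus rose by 0.94 (log2, adjusted p = 0.0026). Its other probe set also rose (adjusted p = 4.7e-04). Under hybridization control scaling the median of this list was 0.03, with 6 called down and 2 up.

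Smooth muscle cells were checked by markers outside the set. MYH11, the smooth muscle myosin heavy chain, lay within the low bacterial controls on all 6 arrays in each of its 4 probe sets, between 0.738 and 11.6. DES, desmin, also lay within them, MYOCD was not measured, and SMTN was above them in both groups. The summed intensity of the 3 measured markers was 163 to 209 in control cells and 314 to 383 in RASv12 cells. Fibroblast markers were above the low controls on every array for 9 of 9 genes, with summed intensity of 18854 to 21502 in control cells and 7837 to 9248 in RASv12 cells. Of the 9, 8 fell, against 14.8% of all genes called down. Their median log2 change was -1.83, against -1.52 for the contractile genes. The contractile genes therefore fell beside fibroblast markers in cells whose MYH11 and DES were at background. The part of the fibroblast marker fall in the contractile gene result was not tested. All 5 skeletal muscle and all 3 measured leukocyte markers were at that background in both groups. So did CDH5 and VWF of 4 endothelial markers, whose sum ran from 92.6 to 121 and from 39.3 to 89.1, and EPCAM, CDH1 and KRT5 of 6 epithelial markers, whose sum ran from 199.9 to 215 and from 152 to 191. In those lists TEK, an endothelial receptor, fell from a mean of 78.6 to 26.4 (log2 change -1.14, adjusted p = 0.0034). KRT19, an epithelial keratin, was at 52.7 in control cells and at background in RASv12 cells, at least 1.88-fold lower (adjusted p = 0.016). Their part in the contractile gene result was not tested.

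Relatives of the set in skeletal and heart muscle were mostly dark. Of 19 measured, 15 lay within the low controls on all arrays, and none fell. ACTC1, cardiac actin, whose sequence is close to that of ACTA2, read 43.4, 47.3 and 30.2 in control cells and 24.5, 27.3 and 35.5 in RASv12 cells and did not pass. MYL4, an atrial light chain, was the only member of this list called, with a rise of 0.50 (adjusted p = 0.0099) on a probe set named _x_at, and 2 of its 4 probe sets were called.

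**Figure D4:**
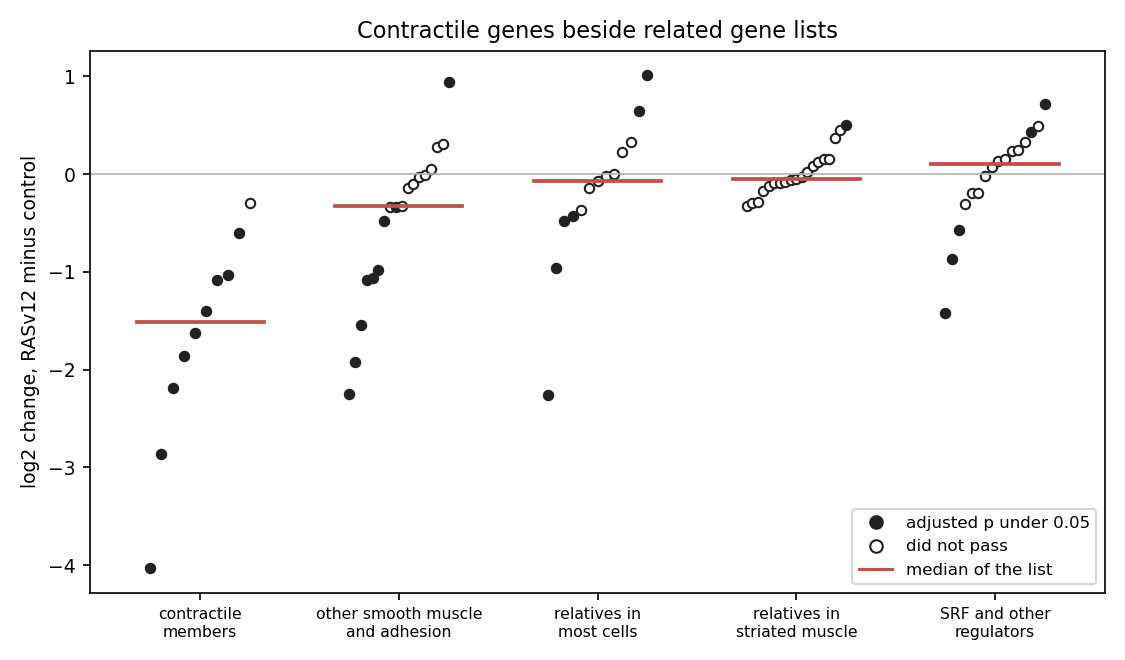
Log2 change of each measured gene, by its brightest probe set, in the contractile set and in 4 related lists, with filled points for genes that passed the test and a bar at the median of each list. The contractile genes have a median of -1.52, or -1.24 with LMOD1 at its bound, and the medians of the other lists drawn lie between -0.33 and 0.10. Fibroblast markers, which are not drawn, had a median of -1.83. Of the 19 striated muscle genes 15 lay at background in both groups and could not show a change.

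Transcripts of SRF, its cofactors and other regulators, not all of which act on the CArG box, were read next. SRF had 43, 64.4 and 54.7 in control cells and 57.2, 44.4 and 21.3 in RASv12 cells on its brighter probe set, which did not pass (adjusted p = 0.54). Its dimmer probe set went from 17, 4.96 and 10.8 to 39.4, 31.8 and 45.1 and lay at background in control cells, so that RASv12 cells were at least 1.37-fold higher there (adjusted p = 0.0049). For the cofactor genes MRTFA and MRTFB the log2 changes were -0.19 and 0.16, and neither passed. Among 16 regulators, 3 were called down, 2 up and 11 neither, at a median of 0.10. Over all genes 14.8% were called down and 13.0% up, and the counts in this list lie near those shares. KLF4, a repressor of contractile genes in smooth muscle, fell by 1.42 (adjusted p = 0.0023). It read 16.2, 24.1 and 35.4 in RASv12 cells, where only 1 array lay above the low bacterial controls. Its dimmer probe set had a log2 change of -0.69 and did not pass (adjusted p = 0.13). MEF2A fell by 0.57, and WWTR1, which encodes the coactivator TAZ, fell by 0.87 on the brightest of its 3 probe sets, the only one to pass. ELK1, an ETS factor that competes with myocardin for SRF, rose by 0.72 (adjusted p = 0.0039). A second ELK1 probe set was also called up, and both are named _x_at. The third was called up too (adjusted p = 0.012) but lay within the low bacterial controls on all 6 arrays. Under hybridization control scaling the call of MEF2A ended (adjusted p = 0.059). Of this list 4 genes were then called up and 2 down, at a median of 0.32.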

How the data were processed

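The authors deposited 1 table of linear signal intensity per probe set for 6 arrays, and the submitters' processing notes name MAS5, with version and scaling target not given in the sources used here. The mean intensity trimmed by 2% at each end was 100.0 on every array, so arrays had been scaled before deposit. RNA was amplified in 2 rounds, per the labels' protocols. Of 22283 probe sets, 68 controls were left out. Probe sets were named by gene identifier through RefSeq (GRCh38.p14), and a gene was represented by its probe set with the highest mean. Intensities were transformed as log2(value + 16), which understates changes of dim genes, and quantile normalized, since array medians lay over 0.1 apart. Groups were compared with limma 3.58.1 (lmFit, eBayes) in R 4.3.3, two-sided, and p-values were adjusted by Benjamini-Hochberg across the 22215 probe sets at a threshold of 0.05. The procedure was tested on simulated data. A probe set at or under 27.98 on every array of a group, the highest intensity of 27 low bacterial controls, has only a bound there, given as "at least" a fold of the brighter group's mean log2 intensity over that level. Differences between probe sets of a gene were adjusted over all such pairs on the array, not over the members' pairs as first planned.

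Alternatives were other pseudocounts, 3 other scalings, 2 filters on dim probe sets, the replicate number as a block, leaving out each array and averaging probe sets. Members, lists and tests were chosen with earlier results of these data known. Named genes were all members, a fixed set of relatives and regulators, and up to 4 called genes per list with the largest moderated t. ACTG1, TPM3 and MYOCD were not analysed here. MYH9, ACTC1, DES, PDLIM5, PDLIM7, TNS1, ACTN1 and the pairs with relatives were named after their values were seen. With 3 arrays per group, array number sets the precision. A further gene list that was planned is not reported here.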

Additional observations from a re-analysis of the deposited data

How the results depend on the processing

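Over 15 alternatives for the 10 genes, 144 of 149 values kept their direction and side of the threshold, and the 5 others belonged to MYL9 and TPM1. With scaling to the hybridization controls TPM1 turned to 0.0572 on its brightest probe set and to 0.22 on 210986_s_at. The 9 called genes ranged from 8 under that scaling to 10 with a pseudocount of 64, and the 12 called probe sets from 10 to 15. The called relatives expressed in most cells went from 6 to 3 with a pseudocount of 1. Called striated muscle relatives went from 1 to 2 with a pseudocount of 1 and to 3 with scaling to the hybridization controls, and ran from 1 to 2 on leaving out each array. Called pairs of probe sets went from 3 to 1 with a pseudocount of 1 or without the dimmest 50% of probe sets, and to 9 with a pseudocount of 64.

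Same-numbered arrays did not deviate together, with correlations of -0.23, -0.03 and -0.07. These values cannot show whether such arrays shared a culture or batch, and outside the block alternative the numbers were used as names of samples. With the replicate number as a block 9 genes and 11 probe sets of the set were called, 2 pairs of probe sets, and 3852 probe sets in all against 5399. The low bacterial controls limit LMOD1 and the dim probe sets of ACTA2 and CALD1, whose size of change cannot be read.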
